A study of Mus musculus with 8 samples.

Results

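This report describes 46 genes that encode the standard proteasome, its regulators and its assembly factors, among 18193 genes with a single symbol on the array, in mouse spleen cells with and without an HMGA1a transgene. The genes were taken by symbol alone: every gene whose symbol starts with Psma, Psmb, Psmc, Psmd, Psme, Psmf or Psmg followed by a digit, without the immunoproteasome genes Psmb8, Psmb9 and Psmb10. Where a gene had several probe sets, the brightest on average was used. RNA came from splenocytes of 8 male C57/BL6 mice, with 1 array per mouse. The 4 groups of 2 mice each were wild type (WT) at 2 months, HMGA1a transgenic (TG) at 2 months, WT at 12 months and TG at 12 months. HMGA1a is a small chromatin protein that binds AT-rich DNA and bends it. By the series' design text, TG mice are free of lymphoid tumours at the younger age and carry established ones at the older age, and WT mice are control littermates. The promoter and cell type that drive the transgene are not given in the sources used here, and no probe set of Hmga1 was analysed here.

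The proteasome is the main protease of the cytosol and nucleus, and degrades proteins tagged with ubiquitin chains. Its barrel-shaped 20S core has outer rings of alpha subunits, which gate the entry, and inner rings of beta subunits, of which Psmb5, Psmb6 and Psmb7 carry the proteolytic sites. A 19S cap binds the ubiquitin chain, removes it and threads the substrate into the core with a ring of ATPases. Lymphoid cells also make an immunoproteasome, in which Psmb8, Psmb9 and Psmb10 replace the standard catalytic subunits. Cells that make much protein, such as dividing or antibody-secreting lymphocytes, depend on proteasome capacity.

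Of the 46 genes, 44 passed a filter that kept probe sets with a mean above the median of all probe sets, as did 11189 genes of the series. The 2 that did not were Psma8, an alpha subunit of the testis, with signals from 3.72 to 38.8, and Psmb11, the catalytic subunit of thymic epithelium, with signals from 2.42 to 18.8. The name of the set fits most but not all of the 44. Psme1 encodes part of an activator that interferon induces. The symbol rule also took in Psmc3ip, a meiotic recombination factor, and Psme3ip1, a protein that binds an activator, and neither is a subunit. Psme2 shared its probe set with Psme2b and was not analysed here. B cell and T cell markers were present on all arrays, with signals from 1796 to 6092 for Cd79a and from 287 to 803 for Cd3e. Median signals per array lay between 44.9 and 49.5, and precision is limited by the small number of arrays. Because RNA of whole spleen cell suspensions was measured, a change in cell numbers and a change in RNA per cell cannot be told apart. Signals are linear MAS5 units, and log2 fold changes, given ± SE, are on the log2(signal + 16) scale, which understates the change of low genes.

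At 12 months, when TG mice carried tumours, most proteasome genes had higher signals in TG than in WT spleens. Of the 44, 38 were higher and 6 lower, where 45.2% of all genes were higher and 54.8% lower. The median log2 fold change of the 44 was 0.19, a difference of 14.4%, against -0.03 over all genes. It was 0.31 between the replicate 1 mice and 0.13 between the replicate 2 mice. Without the replicate 1 WT mouse of 12 months it was 0.16, with 30 of the 44 higher. It was 0.25 without the replicate 2 WT mouse of that age. Leaving out the replicate 1 or the replicate 2 TG mouse of 12 months gave 0.21 or 0.30. Within both replicate numbers 32 of the 44 were higher (26.9% of all genes) and 2 were lower (35.5%). The genotypes did not overlap for 18 of the 44 with TG higher (14.3% of all genes) and for 1 with TG lower, Psmd13 (19.9%). The differences were modest beside the spread between mice, with fold changes from -0.54 to 0.53.

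No gene of the 44 passed the test at 12 months (limma, adjusted p of 0.599 or more), and 0% of all genes did. An unadjusted p under 0.05 was reached by 4 of the 44, all higher in TG mice (2.59% of all genes), and by 0 that were lower (5.14%, or 7.73% in either direction). With the replicate number as a block in the model, 16 were higher at that level (7.26% of all genes) and 1 was lower (12.6%), but again 0 of the 44 passed after adjustment (smallest adjusted p = 0.12), while 0.0447% of all genes did. The count of 4 hung on single arrays. It was 1 without either WT mouse of 2 months, without either WT mouse of 12 months or without the replicate 1 TG mouse of 12 months. It fell to 2 when either TG mouse of 2 months was dropped, and was 6 when the replicate 2 TG mouse of 12 months was dropped. An exact permutation test of 2 mice against 2 cannot go below p = 0.333, so single genes were not tested that way.

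**Figure D1:**
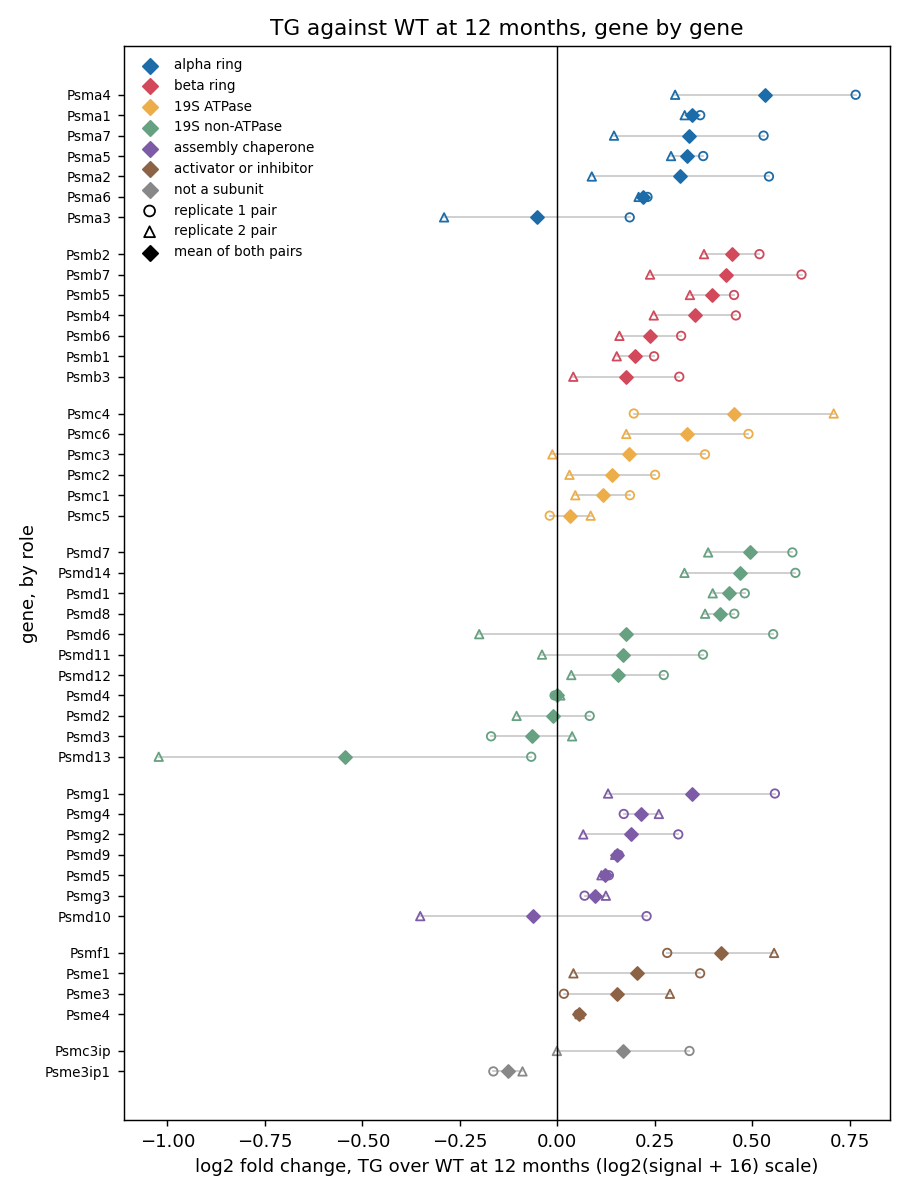
Log2 fold change of TG over WT at 12 months for each of the 44 genes (x axis), grouped by role (y axis). Open circles and triangles are the differences between the replicate 1 mice and between the replicate 2 mice, and diamonds are their mean. All 7 beta ring genes lie right of 0 in both pairs, and Psmd13 lies farthest to the left at -0.54.

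The largest moderated t belonged to Psmd14, which encodes the metalloprotease of the 19S cap that cuts the ubiquitin chain off the substrate. Its signals were 1626 and 1401 in the TG mice of 12 months (replicates 1 and 2) and 1059 and 1114 in the WT mice. At 2 months they were 1109 and 1219 in TG and 1053 and 1109 in WT mice. Both TG mice of 12 months stood above all 6 other mice, which lay close together. The log2 fold change at 12 months was 0.47 ± 0.17 (adjusted p = 0.599, limma; 0.61 within replicate 1 and 0.33 within replicate 2). Its promoter is shown here, with that of the catalytic gene Psmb5, because these genes were among those higher in both pairs of old mice. Both sequences are from RefSeq (GRCm38.p6) and run from 250 bases before to 50 after the start site. Capitals mark TGACNNNGC, the core of the antioxidant response element bound by the proteasome regulators Nfe2l1 and Nfe2l2. Psmd14 lies at chr2:61711444-61711743 on the plus strand and holds no match, and Psmb5 lies at chr14:54617946-54618245 on the minus strand and holds 1.
Psmd14: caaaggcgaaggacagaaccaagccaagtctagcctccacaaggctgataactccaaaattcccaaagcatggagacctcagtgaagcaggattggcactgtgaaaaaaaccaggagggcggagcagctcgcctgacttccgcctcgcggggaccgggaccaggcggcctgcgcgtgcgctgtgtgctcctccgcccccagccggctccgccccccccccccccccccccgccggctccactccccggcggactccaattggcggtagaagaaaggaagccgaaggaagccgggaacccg
Psmb5: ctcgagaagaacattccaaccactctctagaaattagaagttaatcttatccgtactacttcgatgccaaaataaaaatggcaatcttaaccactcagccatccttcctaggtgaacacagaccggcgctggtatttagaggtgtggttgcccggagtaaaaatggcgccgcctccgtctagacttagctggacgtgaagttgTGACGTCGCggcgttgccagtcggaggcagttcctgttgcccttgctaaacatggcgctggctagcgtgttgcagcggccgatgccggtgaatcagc

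In the alpha ring, which gates the core, 6 of 7 genes had higher means in the old TG mice. The ring's median was 0.33, from 0.37 in the first pair and 0.21 in the second. Psma4 had the largest fold change among the genes higher in TG mice. Its signals were 1248 and 1650 in TG and 727 and 1335 in WT mice, so the groups overlapped through the replicate 2 WT mouse, and its log2 fold change was 0.53 ± 0.31. Psma5 showed the tightest pair of TG signals in the ring, 1695 and 1705, against 1304 and 1389 in WT mice (0.33 ± 0.16). At 2 months Psma5 had 1418 and 1554 in TG and 1498 and 1494 in WT mice, with overlap. Psma1, Psma2 and Psma7 also had genotypes that did not overlap, with fold changes from 0.32 to 0.35. Psma6 was higher within both replicates (0.23 and 0.21), but its signals differed more between the replicate numbers, at 1992 and 2938 in TG and 1694 and 2540 in WT mice. Psma3 was the exception of the ring, at 2149 and 1512 in TG and 1887 and 1852 in WT mice (-0.05 ± 0.21).

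In the beta ring 7 of 7 genes were higher in TG mice in both pairs, as were the 4 activator and inhibitor genes. The median of the beta ring was 0.35, from 0.45 in the first pair and 0.24 in the second. Among the catalytic genes, Psmb7, whose product has trypsin-like activity, had 2581 and 2298 in TG and 1666 and 1946 in WT mice (0.43 ± 0.19). Psmb5, which has chymotrypsin-like activity and is the main target of bortezomib, had 1079 and 1194 in TG and 783 and 939.9 in WT mice (0.40 ± 0.22). Both TG mice stood above both WT mice for these genes. Psmb6, which has caspase-like activity, had 677 and 909 in TG and 540.0 and 812 in WT mice (0.24 ± 0.27), and here the replicate 1 TG mouse lay below the replicate 2 WT mouse. Of the structural genes, Psmb4 (0.35 ± 0.22) and Psmb1 (0.20 ± 0.17) had groups that did not overlap. Psmb2 (0.45 ± 0.44) and Psmb3 (0.18 ± 0.53) had groups that overlapped, because their signals differed between the replicate numbers by more than between the genotypes.

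**Figure D2:**
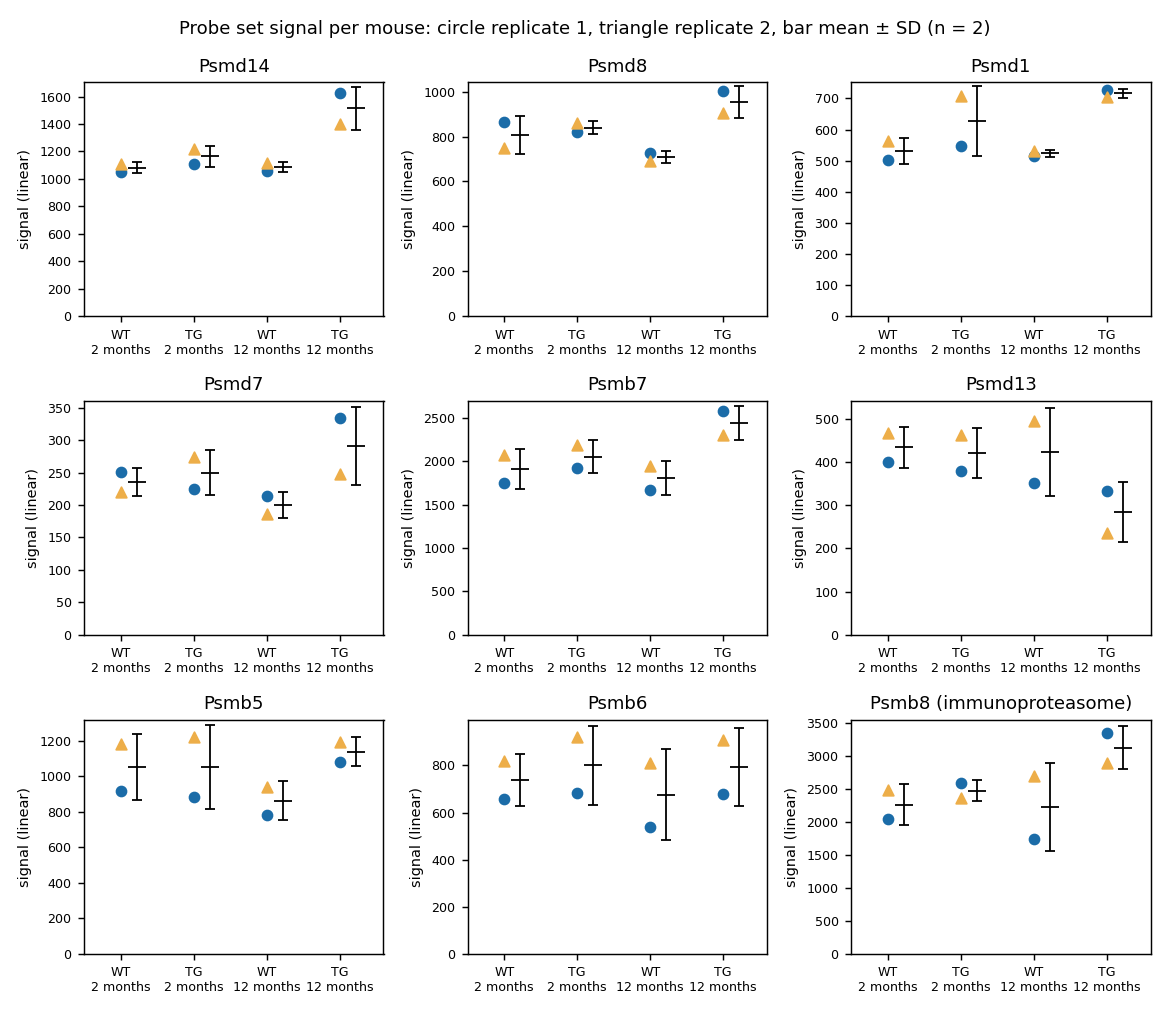
Probe set signal (linear scale, y axis from 0) of 9 genes in the 4 groups (x axis), with circles for replicate 1, triangles for replicate 2 and a bar for the mean ± SD (n = 2). Both TG mice of 12 months lie highest for Psmd14, Psmd8 and Psmb7, and lowest for Psmd13.

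The 6 ATPase genes of the cap, which unfold the substrate, all had higher means in the old TG mice. Their median of 0.16 (pairs at 0.22 and 0.07) was smaller than that of the core. Psmc4 had 657 and 626 in TG and 571 and 377 in WT mice (0.45 ± 0.30), and Psmc6 had 998 and 833 against 705 and 735 (0.33 ± 0.17). These were the ATPase genes without overlap between the groups. The other 4 lay between 0.03 (Psmc5) and 0.18 (Psmc3).

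The 11 non-ATPase genes of the cap were the most divided group, with 8 higher and 3 lower. Their median was 0.17, and the pairs gave 0.37 and 0.04. They held the 4 genes with an unadjusted p under 0.05. Beside Psmd14 these were Psmd8, a lid subunit, with 1004 and 904 in TG and 729 and 691 in WT mice (0.42 ± 0.17), and Psmd1, a large scaffold of the base, with 726 and 706 against 516 and 532 (0.44 ± 0.18). The last was Psmd7, the lid partner of the Psmd14 protease, with 334 and 248 against 214 and 186 (0.50 ± 0.21). At 12 months both TG mice stood above both WT mice in all 4 genes, and adjusted p-values were 0.599 to 0.642 (limma). At 2 months Psmd8 had 820.2 and 861 in TG and 866 and 748 in WT mice, and Psmd7 had 225 and 274 against 251 and 220.1, so the genotypes overlapped in both genes at that age. At the other end, the lid subunit gene Psmd13 had 334 and 236 in TG and 351 and 495 in WT mice (-0.54 ± 0.25, adjusted p = 0.659). At 2 months Psmd13 had 380.2 and 462 in TG and 401 and 468 in WT mice. Nearly all of the 12-month difference lay between the replicate 2 mice (-1.02, against -0.07 within replicate 1). The other kept probe sets of Psmd13 gave -0.03 and -0.30. The ubiquitin receptor gene Psmd4 (0.00 ± 0.28), Psmd2 (-0.01 ± 0.17) and Psmd3 (-0.07 ± 0.18) had fold changes near 0.

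Genes for assembly and regulation had smaller medians than the core. Of 7 assembly chaperone genes 6 had higher means in the old TG mice, and the median was 0.15 (pairs at 0.17 and 0.12). Psmg1, a chaperone of alpha ring assembly, had 358 and 285 in TG and 238 and 259 in WT mice (0.34 ± 0.19). The exception was Psmd10, known as gankyrin, with 209 and 132 against 176 and 173 (-0.06 ± 0.23), in which the TG mice lay on either side of the WT mice. The 4 activator and inhibitor genes were all higher in both pairs, with a median of 0.18 (pairs at 0.17 and 0.17). Of these, Psmf1, which encodes a core-binding protein first described as an inhibitor, had 309 and 366 in TG and 252 and 244 in WT mice (0.42 ± 0.20). The activator genes Psme1 (0.20 ± 0.24), Psme3 (0.15 ± 0.44) and Psme4 (0.06 ± 0.21) had groups that overlapped. Psme3ip1, which is no subunit, was lower within both replicates (-0.16 and -0.09).

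The immunoproteasome genes gave a comparison within the same family. Psmb8, the counterpart of Psmb5, had 3355 and 2894 in TG and 1749 and 2695 in WT mice of 12 months (0.52 ± 0.24). Psmb9, the counterpart of Psmb6, had 1699 and 1595 against 941 and 1676 (0.39 ± 0.28), and Psmb10, the counterpart of Psmb7, had 1037 and 919.9 against 734 and 919.6 (0.25 ± 0.19). For these 3 the difference lay almost wholly between the replicate 1 mice, at 0.93, 0.84 and 0.49, whereas it was 0.10, -0.07 and 0.00 between the replicate 2 mice. The standard catalytic genes Psmb5, Psmb6 and Psmb7 differed by 0.45, 0.32 and 0.63 within replicate 1 and by 0.34, 0.16 and 0.24 within replicate 2. The difference between both sets of genes was not tested.

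Markers of cell types and of cell division also differed between the genotypes at 12 months. The 9 measured of 10 mitosis genes all had higher means in TG mice (median 0.67, pairs at 0.70 and 0.54), and their summed signals were 7697 and 6302 in TG against 5259 and 4804 in WT mice. The 7 measured of 8 T cell genes summed to 7192 and 3652 in TG and 2913 and 3558 in WT mice, so they were high in the replicate 1 TG mouse, which also had the highest signal of all 8 arrays for 23 of the 44 proteasome genes. Of all genes, 15.9% were highest on that array. Among the T cell genes Cd4 was lower in both TG mice, at 271 and 258 against 336 and 345 in WT mice. The 6 macrophage genes were lower, at 9014 and 12173 against 16671 and 16086. The 8 measured of 9 B cell genes summed to 12109 and 23364 against 17886 and 24698. The means of 7 of them were lower in TG mice (median of the 8 at -0.38). The 7 measured of 8 neutrophil genes summed to 9205 and 20818 against 10025 and 5696. The 6 dendritic cell genes summed to 1146 and 1266 against 1556 and 1909. The measured markers in these lists all had signals above 0. The signal of the 3' Gapdh control over that of the 5' control, which bears on RNA integrity, was 0.843 and 1.21 in TG and 1.25 and 1.73 in WT mice of 12 months. The part of these in the proteasome values was not tested.

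Other genes of the ubiquitin pathway are given beside these, from a list of enzymes, receptors and regulators. Of 40 listed genes 31 were measured, and at 12 months 19 were higher and 12 lower in TG mice. Their median was 0.05, 0 passed the test (limma) and 2, Ube2d3 and Nfe2l2, had an unadjusted p under 0.05. In the other 4 comparisons 0 of the 31 passed as well, with medians from -0.01 to 0.03, and unadjusted p-values under 0.05 were reached by 1 gene each for the interaction and for age in TG mice. Ube2d3, a ubiquitin-conjugating enzyme, had 4630 and 5152 in TG and 2754 and 3071 in WT mice, with groups far apart and equal differences within the replicates (0.75 and 0.74). Its log2 fold change was 0.74 ± 0.18 (adjusted p = 0.586, and 0.0594 with the replicate block, limma). Nfe2l2, one of the regulators of proteasome genes, was at 0.44 ± 0.18 and the ubiquitin ligase gene Ube4a at 0.52 ± 0.26. Nfe2l1, the regulator that restores proteasome genes after inhibition, was at -0.20 ± 0.19. The core maturation factor gene Pomp was at 0.08 ± 0.17 and the small cap subunit gene Sem1 at 0.00 ± 0.18. The cap subunit gene Adrm1 was not analysed here.

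At 2 months, ahead of tumours, the same contrast gave small differences. Of the 44 genes 32 were higher in TG mice (52.5% of all genes) and 12 lower (47.5%), with a median of 0.06 against 0.01 over all genes. This count and median rested on 1 mouse. Without the replicate 2 TG mouse of 2 months 20 of 44 were higher and the median was -0.01, and without the replicate 1 TG mouse the median was 0.15. Leaving out the replicate 1 or the replicate 2 WT mouse of 2 months gave 0.03 or 0.10. Within the replicates the medians were 0.00 and 0.09, with 19 genes higher within both (27.2% of all genes) and 5 lower within both (24.2%). The genotypes did not overlap for 6 genes with TG higher (10.1%) and 2 with TG lower (7.83%). No gene of the 44 passed the test (limma, adjusted p of 1.00, with 0% of all genes past it), and 0 of the 44 had an unadjusted p under 0.05 with or without the block (0.393% of all genes, and 1.69% with the block, of which 0.992% higher). The core had medians near 0, at 0.01 for the alpha ring and 0.01 for the beta ring.

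The 4 genes with the largest moderated t at 2 months were Psmf1, Psmd1, Psme4 and Psmd3. Psmf1 had 261 and 353 in TG and 252 and 225 in WT mice (0.33 ± 0.20), a difference that lay mainly in the replicate 2 mice (0.62, against 0.05 within replicate 1). Psmd1 had 547 and 706 against 502 and 562 (0.22 ± 0.18), with overlap. Psme4, the nuclear activator known as PA200, had 576 and 535 against 517 and 419 (0.25 ± 0.21). Psmd3 had 509 and 480 against 405 and 457 (0.19 ± 0.18). Other kept probe sets gave -0.04 and 0.06 for Psmf1 and 0.01 and -0.05 for Psme4 at 2 months. By their chosen probe sets, Psmf1 and Psmd1 were higher in TG mice at both ages. Psmd3 was not, at -0.07 at 12 months (418 and 529 in TG against 472 and 515 in WT mice). Psme4 had 615 and 488 against 592 and 468 at that age, with overlap. Psmb5 had 885 and 1219 in TG and 918 and 1181 in WT mice of 2 months, Psmb6 681 and 919 against 659 and 818, and Psmb7 1917 and 2187 against 1750 and 2073. All 3 catalytic genes had groups that overlapped at this age. Psmb8 had 2588 and 2360 against 2041 and 2487, Psmb9 1217 and 1371 against 1149 and 1521, and Psmb10 1031 and 919 against 784 and 905. Of these only Psmb10 had groups that did not overlap. In the replicate 2 TG mouse of 2 months, which carried the higher values, erythroid markers summed to 17648 and mitosis markers to 7115. The other mice of that age had 5701 to 11721 and 3473 to 4825. The replicate 1 WT mouse of 2 months carried 10420 over the measured exocrine pancreas genes, against 449 to 635 in the others of that age. The part of these markers was not tested.

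**Figure D3:**
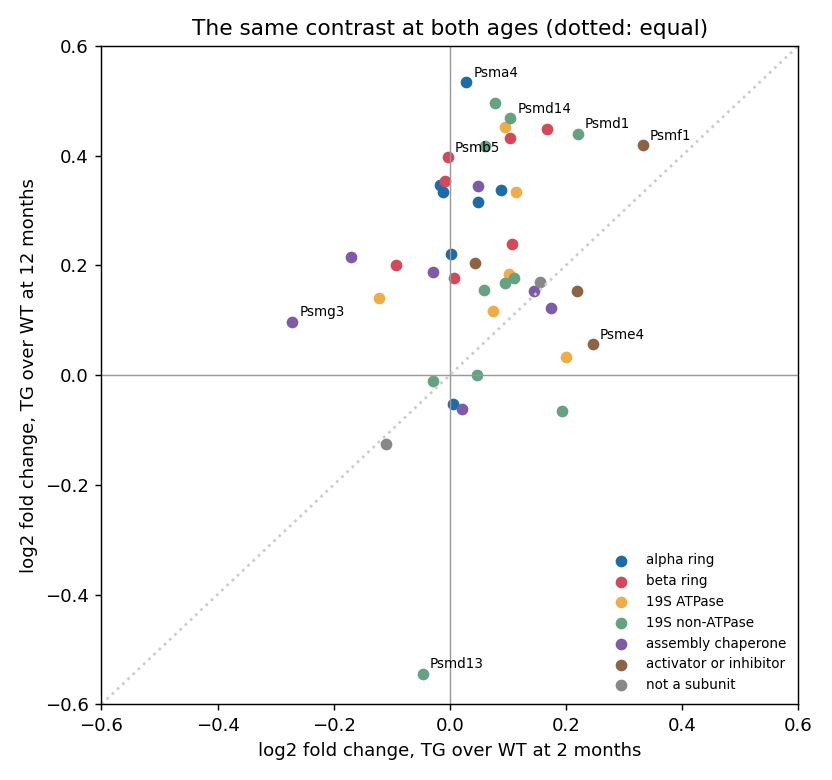
Log2 fold change of TG over WT at 2 months (x axis) and at 12 months (y axis) for the 44 genes, coloured by role, with the dotted line where both are equal. Most points lie above the line, near 0 on the x axis, and Psmd13 lies alone at the bottom at -0.54 on the y axis.

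The difference between the ages was fitted as an interaction. It was positive, meaning a larger TG excess at 12 months, for 34 of the 44 genes (43.7% of all genes) and negative for 10 (56.3%), with a median of 0.19 against -0.05 over all genes. This median was 0.31 within replicate 1 and 0.01 within replicate 2, 0.06 without the replicate 1 TG mouse of 2 months and 0.08 without the replicate 1 WT mouse of 12 months. No gene of the 44 passed (limma, adjusted p of 1.00, with 0% of all genes past it), and 0 had an unadjusted p under 0.05 (1.9% of all genes, of which 1.39% negative). With the block 0 passed, while an unadjusted p under 0.05 was reached by 5 genes with a positive difference, all of them in the core (2.6% of all genes), and by 0 with a negative one (5.54%, or 8.14% in either direction). Psmd14 (0.36 ± 0.24), Psma5 (0.34 ± 0.23) and Psmd8 (0.36 ± 0.24) had the largest moderated t. The core had 13 of 14 genes with a positive difference (median 0.29), against 13 of 17 cap genes (median 0.08, with 0.30 and -0.15 within the replicates). Markers also differed in this comparison. It includes the replicate 1 WT array of 2 months, which was high in exocrine pancreas genes. Of the 9 mitosis genes 8 had a positive difference (median 0.39, pairs at 0.71 and 0.04), and the 6 macrophage genes (-0.56) and the 6 dendritic cell genes (-0.52) all had a negative one, and their part was not tested. The effects at the 2 ages share no array, and across the 44 genes they correlated with r = 0.22, close to r = 0.21 over all genes.

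Age within each genotype was compared last, and these comparisons share their 12-month or 2-month arrays with those of the transgene. In WT mice 12 of the 44 genes were higher at 12 than at 2 months (51.4% of all genes) and 32 lower (48.6%), with a median of -0.05 against 0.01 over all genes. The replicate 1 WT mouse of 12 months set the direction. It had the lowest signal of all 8 arrays for 18 of the 44 genes (12.97% of all genes), and without it 26 genes were higher and the median was 0.04. With the replicate 2 WT mouse of 12 months left out instead, the median was -0.14. Leaving out the replicate 2 WT mouse of 2 months gave 21 higher genes and a median of -0.02, and leaving out the replicate 1 WT mouse of 2 months gave -0.10. Within both replicates 8 genes were higher (27.6% of all genes) and 23 lower (26.3%). No gene of the 44 passed the test (limma, adjusted p of 1.00), and 0% of all genes did. An unadjusted p under 0.05 was reached by 0 of the 44 (1.53% of all genes, of which 0.947% higher). With the block 4 genes reached it as lower at 12 months (2.4% of all genes) and 0 as higher (2.77%).

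The genes with the largest moderated t for age in WT mice were all lower at 12 months. Psme3ip1 had 383 and 437 at 12 months and 533 and 512 at 2 months (-0.34 ± 0.17), with no overlap. Psmc4 had 571 and 377 against 758 and 542 (-0.45 ± 0.30), and Psmb5 had 783 and 939.9 against 918 and 1181 (-0.27 ± 0.22), both with overlap between the ages. Psmg1 had 238 and 259 against 284 and 301 (-0.22 ± 0.19), with no overlap. In TG mice of 2 months Psmc4 had 884 and 532, and Psmg1 had 284 and 322. Cell type markers also differed between the ages in WT mice. The 6 plasma cell genes (median 0.49) and the 6 macrophage genes (0.30) were all higher at 12 months in both pairs, and the plasma cell genes summed to 14090 and 20054 against 10555 and 14641. All 7 T cell genes (-0.30) and all 5 NK cell genes (-0.48) had lower means, and the NK cell genes summed to 1382 and 1376 against 2303 and 2390.2. The replicate 1 WT mouse of 2 months carried a summed signal of 10420 over the 4 measured of 8 exocrine pancreas genes, against 415 to 635 in the other mice. The part of these markers in the proteasome values was not tested.

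In TG mice 33 of the 44 genes were higher at 12 than at 2 months (43.7% of all genes) and 11 lower (56.3%), with a median of 0.10 against -0.04 over all genes. The median was 0.23 within replicate 1 and -0.02 within replicate 2, and 0.02 without the replicate 1 TG mouse of 2 months. Leaving out the replicate 2 TG mouse gave 0.18 for the one of 2 months and 0.16 for the one of 12 months. Psmd14 had 1626 and 1401 at 12 months and 1109 and 1219 at 2 months (0.37 ± 0.17), and Psmb7 had 2581 and 2298 against 1917 and 2187 (0.25 ± 0.19). In both genes the groups did not overlap. Psmd13 had 334 and 236 against 380 and 462 (-0.55 ± 0.25), and Psme3ip1 had 340 and 410 against 488 and 479 (-0.36 ± 0.17), and both were lower in both old mice. No gene of the 44 passed the test (limma, adjusted p of 1.00), where 0.00894% of all genes did. An unadjusted p under 0.05 was reached by 0 of the 44 (4.72% of all genes, of which 1.61% higher). With the block 0 passed (0.188% of all genes) and 4 had an unadjusted p under 0.05 (13.4%). These were Psmd14 and Psmb2 as higher (4.51% of all genes), and Psmd13 and Psme3ip1 as lower (8.87%). The 9 mitosis genes all had higher means at 12 months, with a median of 0.51 (pairs at 1.10 and -0.08) and sums of 7697 and 6302 against 3473 and 7115. Of the 6 plasma cell genes 5 were higher (median 0.47), and the 6 dendritic cell genes were all lower in both pairs (-0.43). The part of these markers was not tested.

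**Figure D4:**
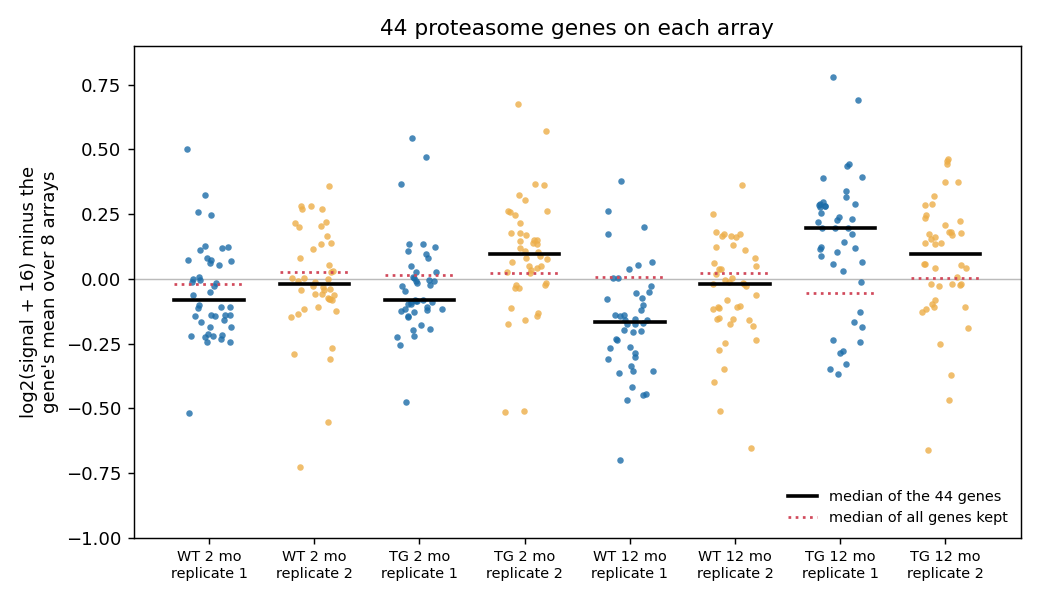
Each point is 1 of the 44 genes on 1 array (x axis, 8 mice), as log2(signal + 16) minus the mean of that gene over all arrays (y axis), with replicate 1 in blue and replicate 2 in yellow. The median of the 44 (black bar) is lowest on the replicate 1 WT array of 12 months at -0.16 and highest on the replicate 1 TG array of 12 months at 0.20, while the median of all genes kept (dotted) stays between -0.05 and 0.03.

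For several genes the replicate numbers lay farther apart than the genotypes or ages. Psmb3 was lower on every replicate 2 array than on the replicate 1 array of its group, by a mean log2 difference of -1.02, at signals of 467 to 497 against 906 to 1129. Psmb2 showed the same with a mean of -0.83. Psme3, which encodes the nuclear activator of the core, went the other way with a mean of 0.79, and Psma6 with 0.58 (0.56 to 0.59 in the 4 groups). In all, 12 of the 44 genes were higher in replicate 2 in all 4 groups (25.9% of all genes) and 10 lower (21.4%), and 4 reached a mean log2 difference of 0.5 either way (15.2%). The counts higher and lower in all 4 groups lay near the shares of all genes, so these counts were not particular to the set. Between pairs of groups the replicate difference correlated with r from 0.673 to 0.884 over the 44 genes, against 0.464 to 0.654 over all genes. The median difference between the replicate numbers was 0.10, against 0.04 over all genes.

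**Figure D5:**
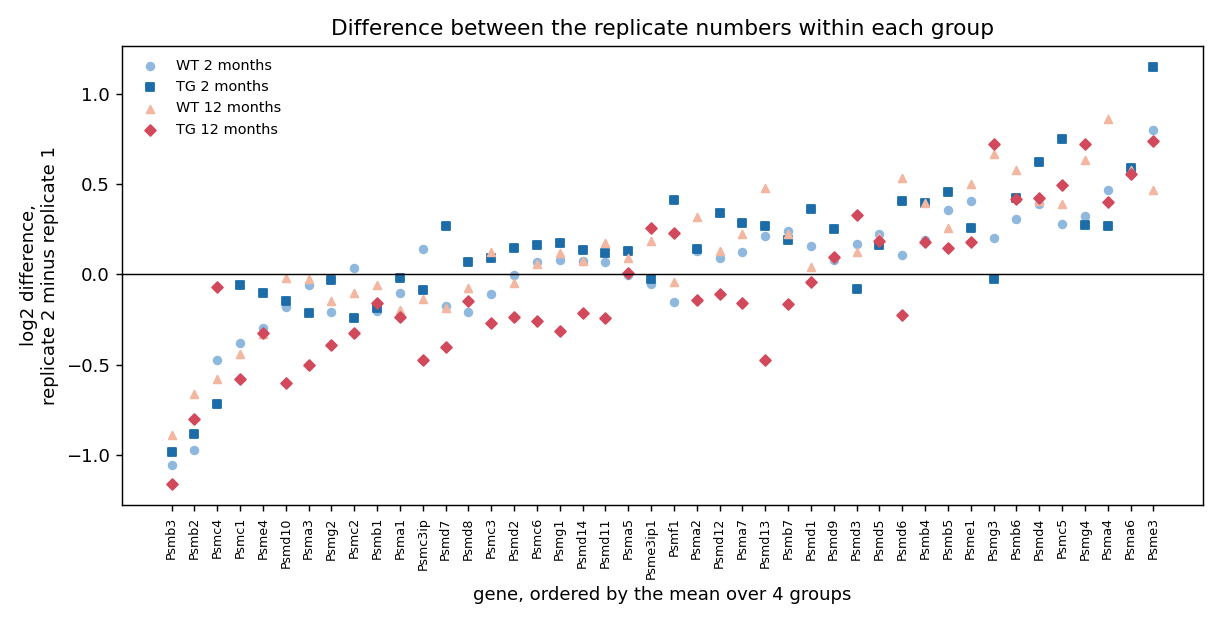
Log2 difference between the replicate 2 and the replicate 1 mouse (y axis) within each of the 4 groups (markers) for the 44 genes (x axis), ordered by their mean. Psmb3 and Psmb2 lie at the low end near -1.02 and -0.83 in the mean, and Psme3 at the high end.

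Several genes had more than 1 probe set. Of the 44, 20 had at least 1 further probe set above the filter, 29 in all, and at 12 months 20 of these 29 had the sign of the chosen one. At 2 months 12 of 29 did. For Psma5 the second probe set gave 0.40 beside 0.33, and for Psma6 the others gave 0.25 and 0.05 beside 0.22. In the beta ring a second kept probe set gave 0.10 beside 0.35 for Psmb4 and 0.04 beside 0.20 for Psmb1. For Psmb3 it gave 0.25 beside 0.18. For Psma1 a dim probe set (mean signal 89.7) gave -0.46 beside 0.35 for the chosen one (1037). Psmf1 stood at 0.42 in the chosen probe set and at -0.21 and -0.03 in 2 others, and Psmd4 at 0.00, 0.34 and -0.47. Psmd14, Psmd8, Psmd1 and Psmb7 had a single probe set each. The chosen probe sets of Psma6, Psmc2 and Psmd11 carry a suffix that marks probes shared with other sequences, so their values can mix transcripts.

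Promoter sequences were searched for what the genes share beside their names. RefSeq promoters were given for 37 of the 44 genes, with a median GC content of 59.0% and a median of 20 CpG per 300 bases, against 60.67% and 20 for the kept genes. On either strand, TTCCGG, which holds the GGAA core of ETS factor sites, was present in 22 of 37 genes, or 59.5%, against 31.3% of the kept genes and 16.7% of all genes with a promoter. The longer ACTTCCGG, which contains it, was present in 9, or 24.3%, against 9.09% and 4.31%. Because these motifs were singled out among 11 searched, the counts are descriptions. Genes with TTCCGG had a median fold change of 0.15 at 12 months, and the 15 without it 0.34. The following lines show ACTTCCGG, in capitals, in 4 of the 9 genes, with 6 bases on either side, on the strand where it reads so.
Psma6, chr12:55398835-55398854, plus strand: gccataACTTCCGGgagggg
Psmd12, chr11:107479504-107479523, plus strand: cgggcgACTTCCGGtgcgag
Psmd13, chr7:140882382-140882401, minus strand: tcgctcACTTCCGGcaccgc
Psmd6, chr14:14120977-14120996, plus strand: agtctgACTTCCGGtcgcgt

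The antioxidant response core TGACNNNGC, searched because Nfe2l1 and Nfe2l2 are known regulators of proteasome genes, was present in 6 of 37 genes, or 16.2%, against 16.9% of the kept genes and 14% of all genes. Those 6 had a median fold change of 0.20 at 12 months, and the other 31 had 0.18. It lay 47 bases before the start site in Psmb5 and 9 before it in Psmb6, both catalytic genes. In Psmc6 and Psmd12, which are not shown, it lay 227 and 247 bases before the start site. The windows of the other 4 of the 6 genes are shown on the strand where the motif, in capitals, reads as spelled.
Psmb5, chr14:54618028-54618048, minus strand: aagttgTGACGTCGCggcgtt
Psmb6, chr11:70525342-70525362, plus strand: agagagTGACGGAGCgcttta
Psmd9, chr5:123228153-123228173, plus strand: agccggTGACCCCGCccactt
Psme4, chr11:30771762-30771782, minus strand: ttctggTGACGCTGCagccgc
Of the other motifs, the looser TGANNNNGC, which contains that core, was present in 56.8% of the 37 genes and 48% of the kept genes. CCAAT was present in 37.8% and 42.6%, the E-box CACGTG in 10.8% and 11.7%, and GGAAGTG, which can overlap ACTTCCGG, in 21.6% and 17.2%. GCCATTTT was present in 5.41% and 2.28%, AAGATGGC in 8.11% and 5.37%, ACTACAA in 5.41% and 4.88%, and TGACGTCA in 0% and 3.5%. A match says only that these letters stand in the window.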

How the data were processed

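Per the labels, RNA of splenocytes from 8 mice was amplified, labelled with biotin and hybridised to Affymetrix arrays. The authors deposited an intensity for each probe set, on a linear scale, made with GCOS 1.4 and MAS5, per the submitters' processing notes. Genes were named from the platform annotation (34945 of 45101 probe sets with 1 symbol). Here the intensities were transformed to log2(signal + 16). Dimmer probe sets, with a mean under the median of all, were dropped, and the brightest remaining one was kept for a gene. A model with 4 group means was fitted with limma 3.58.1 (R 4.3.3, lmFit, contrasts, eBayes with trend) and tested on simulated data. P-values are 2-sided, adjusted by Benjamini-Hochberg over 11189 genes, at a threshold of 0.05. The labels call the replicates biologic, 2 per group. The difference between the replicate numbers was partly shared by the groups (r from 0.464 to 0.654 over genes, 6 pairs of groups). The number was therefore also used as a block, and values within each number are given.

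Signals of every mouse are given for catalytic genes and their immune counterparts and for the genes with the largest moderated t (6 for TG against WT at 12 months, 4 for each other comparison, 3 for the interaction). From the pathway list those with the largest t were named, with Pomp, Nfe2l1, Nfe2l2, Adrm1 and Sem1. Other genes are named by role or as exceptions, after their values were seen. The genes, lists and motifs were chosen with earlier results of these data known. Alternatives covered pseudocount, scaling, filter, probe set, block, moderation, samples and membership. The count of higher genes was added to them after seeing the data.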

Additional observations from a re-analysis of the deposited data

How the results depend on the processing

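With the replicate number as a block, 0 of the 44 genes passed the test in any of the 5 comparisons, as without it, whereas the number of all genes past it went from 0 to 5 for TG against WT at 12 months and from 1 to 21 for age in TG mice. No other alternative run gave a proteasome gene past the test. The fold changes of the 21 gene and comparison pairs followed kept their sign in all 396 refits. Many of these refits could not change a fold change, such as those of the block, the moderation or arrays outside the contrast. The pairs were also picked for their large moderated t in these data. The median changed sign, and the count of higher genes moved by over 1.5 times, only when single arrays were left out, and the cause was not tested. With all arrays kept, other scaling, filters or probe sets moved that count by 3 or fewer genes. For TG against WT at 2 months the median ran from -0.011 to 0.15 and the count from 20 to 32. For age in WT mice the median ran from -0.14 to 0.0376 and the count from 10 to 26. At 12 months the TG median stayed between 0.16 and 0.30 with 30 to 38 genes higher, and 0.17 to 0.20 under the settings that kept all arrays. The count with an unadjusted p under 0.05 at 12 months was 1 without the intensity trend, 0 when only the 12-month arrays were fitted and 7 without moderation. The number of all genes past the test was also 7 at 12 months without the replicate 2 TG mouse of that age, and 0 to 4 for age in TG mice when single arrays were left out. With 2 mice per group, small differences of single genes could not be resolved.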
